A study of Danio rerio with 15 samples.

Results

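The retinoid receptors are 10 genes of the zebrafish: 6 retinoid X receptors (RXR) and 4 retinoic acid receptors (RAR). They were picked by gene name from a table of 32520 genes, and all 10 passed the filter on low counts. Under their zebrafish names the table of symbols held rxrga, rxrgb, rxrbb, raraa and rarab. The other 5 were matched in capitals without the copy letter. RXRB (ENSDARG00000078954) stands for rxrba. A pair of identifiers, ENSDARG00000035127 and ENSDARG00000057737, share the symbol RXRA, and another pair, ENSDARG00000034117 and ENSDARG00000054003, share RARG. Which of each pair is the a copy and which the b copy is not given in the symbols used here, so these 4 genes are named by identifier.

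RARs are nuclear receptors that bind all-trans retinoic acid, a derivative of vitamin A, and they sit on DNA as heterodimers with an RXR. Without ligand the pair holds corepressors such as NCOR1, and ligand exchanges these for coactivators. RXRs also partner the receptors for vitamin D, thyroid hormone, fatty acids, oxysterols and bile acids. In zebrafish embryos retinoic acid patterns the hindbrain, heart, fins and eye, and most receptor genes are kept as a pair of copies from the duplication of the teleost genome.

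RNA of whole wild-type larvae at 5 days post fertilization was sequenced in 15 libraries, 5 in each of 3 groups that differ in the diet of the parents. Adult fish ate blackworms (Lumbriculus variegatus) over 60 days, and the larvae themselves grew in medium free of arsenic. Control parents had worms with arsenic below 0.05 µg/g dry weight, Low parents worms with 32.4 µg/g by the sample labels (33.42 µg/g in the protocol text), and High parents worms with 72.47 µg/g, after 14 days of the worms in 0, 2.5 or 5.0 mg/L sodium arsenite. All 3 groups share the worm diet. Whether each library had its own clutch or parents is not in the labels, nor whether the 20 larvae they name were pooled per library, so a p-value here covers only variation among these libraries.

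Totals per library ran from 21.2 to 59.9 M counts (M, mega), with Control 5 the deepest. Levels are given as CPM, the counts of a gene per M of the library total after scaling with TMM factors. Within each group, transcripts of pancreas and liver varied strongly from library to library. The summed CPM of 13 exocrine pancreas markers ran from 15.5 to 13028 in Control, 5.90 to 5583 in Low and 21.1 to 9527 in High, and that of 17 liver markers from 70.2 to 4860, 66.8 to 6443 and 66.6 to 10677. Markers of neurons, at 3295 to 4758 summed CPM over all libraries, and of skeletal muscle, at 7674 to 27794, were present in every library, as RNA of whole larvae should hold them.

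Of the 10 receptor genes, 1 rose in larvae of High parents. rxrga, a gene for the gamma form of RXR, was 1.43-fold higher than in Control and 1.57-fold higher than in Low. The other 9 did not pass by edgeR in any comparison, and none of the 10 passed between Low and Control. Of all genes, 0.522% passed in High against Control, 1.71% in High against Low and 0% in Low against Control. The call of rxrga against Control was lost in some of the alternative fits given below.

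rxrga (ENSDARG00000005593) encodes an RXR of the gamma type, which in mouse helps to set the pattern of opsins in cone photoreceptors. Of 17 cone marker identifiers tested, 7 were above 0 and 10 below in High against Control (median log2 fold change -0.19). There 2 passed as higher and 1 as lower. Against Low 6 were above 0 and 11 below (median -0.37), and 3 passed as higher and 2 as lower. Of 15 rod identifiers 13 were below 0 against Control (median -0.32) and 14 against Low (-0.33), and 0 passed. Of all genes 0.522% and 1.71% passed in these comparisons. The part of photoreceptors in rxrga was not tested. rxrga stood at 7.75, 7.38, 6.57, 6.98 and 6.95 CPM in Control 1 to 5. In Low 1 to 5 it stood at 6.66, 6.65, 6.70, 6.38 and 6.09 CPM. In High 1 to 5 it stood at 10.8, 10.3, 10.9, 8.96 and 9.95 CPM. Every High library was above every Control and every Low library, while Low and Control overlapped. The counts behind these values were 162 to 430 in Control, 134 to 190 in Low and 193 to 378 in High. The group means were 7.12 ± 0.451 CPM for Control, 6.49 ± 0.260 for Low and 10.2 ± 0.782 for High (SD, n = 5 each), so the coefficient of variation was at most 7.69%.

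**Figure D1:**
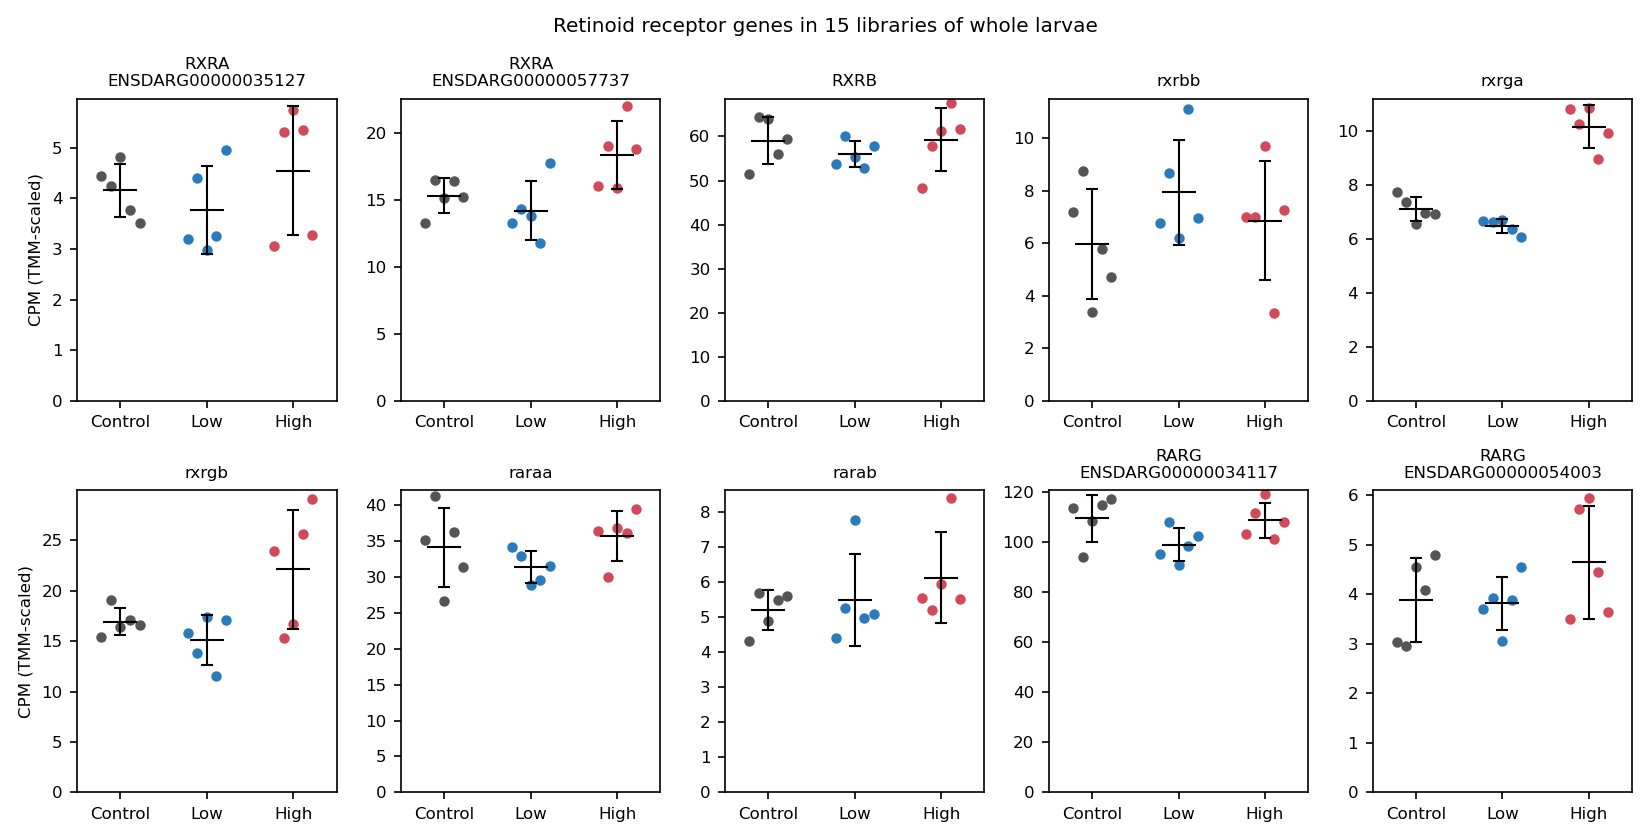
CPM of the 10 retinoid receptor genes in each library (points, vertical axis) for Control, Low and High, with the group mean and SD; each panel has its own axis, and levels are not corrected for gene length. rxrga is the panel in which the High points lie above all others, at 8.96 to 10.9 CPM.

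Against Control, rxrga had a log2 fold change of 0.51 (SE 0.089, 95% interval 0.33 to 0.70) with an adjusted p of 0.0223 by edgeR's quasi-likelihood test. This was 1 of 10 receptor genes called, where 0.522% of the 22012 genes tested were called (0.191% as higher). Its groups did not overlap, as in 4.41% of all genes (2.02% with High above). Against Low the log2 fold change was 0.65 (SE 0.089, 95% interval 0.46 to 0.84; adjusted p = 0.00717), where 1.71% of all genes were called (0.672% as higher) and 4.31% did not overlap (1.88% with High above). Low against Control gave a log2 fold change of -0.13 (95% interval -0.32 to 0.057; adjusted p = 0.675).

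The call against Low was kept in all 15 fits that each left out 1 library, with adjusted p from 0.00312 to 0.0294. The call against Control was made in 11 of these 15 fits, and adjusted p was 0.0523 without Control 2, 0.0738 without Control 4, 0.07 without High 1 and 0.0617 without High 2, while the log2 fold change stayed between 0.49 and 0.57. Fitted on the Control and High libraries alone, adjusted p was 0.0739, and with the replicate number as a block in the fit it was 0.0939.

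The digestive transcripts that set libraries apart are given beside rxrga. The mean log2 CPM of the pancreas and liver markers was -0.21 to 7.42 in Control, -1.18 to 6.42 in Low and -0.31 to 7.45 in High. The ranges were alike but the groups were not balanced, with medians of 3.33, 0.42 and 6.78. In High 3 libraries had a mean above 6, against 1 in Control and 1 in Low. In the libraries lowest in these markers, Control 5, Low 4 and High 3, rxrga stood at 6.95, 6.38 and 10.9 CPM. In those highest in them, Control 2, Low 5 and High 4, it stood at 7.38, 6.09 and 8.96 CPM. With this mean as a covariate the adjusted p of rxrga was 0.0335 against Control and 0.0221 against Low. Without the 5 libraries whose mean was above 6 (Control 2, Low 5 and High 2, 4 and 5) the log2 fold change against Control was 0.62, with an adjusted p of 0.128, and against Low adjusted p was 0.021. In whole-larva RNA, more cells of a type and more RNA per cell cannot be told apart, and the cause of the rxrga difference was not tested.

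Along worm arsenic, rxrga had a slope of 0.074 log2 units per 10 µg/g (SE 0.018, 95% interval 0.036 to 0.11), with an adjusted p of 0.0858 by edgeR. Its level did not rise stepwise, since the Low mean of 6.49 CPM was below the Control mean of 7.12 CPM. No receptor gene passed on this slope, where 0.286% of all genes did. At an unadjusted p under 0.05 there were 3 receptor genes and 15.4% of all genes. 

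rxrgb (ENSDARG00000004697) is the other copy of the gamma receptor. It measured 15.5, 19.1, 16.4, 17.1 and 16.6 CPM in Control 1 to 5 and 15.8, 13.8, 17.4, 11.5 and 17.1 CPM in Low 1 to 5. In High 1 to 5 it measured 23.9, 15.3, 16.7, 25.7 and 29.1 CPM. High 1, 4 and 5 were above every library of the other groups, High 3 was within the range of Control, and High 2 was just below the lowest Control library. The coefficient of variation was 26.7% in High, 8.06% in Control and 16.4% in Low.

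The log2 fold change of rxrgb against Control was 0.39 (SE 0.17, 95% interval 0.031 to 0.74; adjusted p = 0.272) and against Low 0.55 (SE 0.17, 95% interval 0.19 to 0.91; adjusted p = 0.0883), so it did not pass in either by edgeR. Without Low 5 the adjusted p against Low was 0.0375, in a fit that called 17% of all genes. With the mean of the pancreas and liver markers as a covariate the log2 fold change against Low was 0.38 (adjusted p = 0.328) and against Control 0.30 (adjusted p = 0.394). The 3 High libraries high in rxrgb were also the highest of their group in the list of 13 markers of retinal pigment epithelium, with mean log2 CPM of 3.90, 4.01 and 3.89 in High 1, 4 and 5 against 3.40 and 2.17 in High 2 and 3. This list was picked from several tissue lists, and the other groups did not follow the same order. Control 5 had 3.86 on this list and 16.6 CPM of rxrgb. Control 2 was the lowest of its group on the list, at 2.39, and the highest in rxrgb, at 19.1 CPM. Low 4 was the highest of its group on the list, at 2.74, and the lowest in rxrgb, at 11.5 CPM. The summed CPM of the list was 130 to 370 in Control, 109 to 156 in Low and 103 to 422 in High, and none of its markers was at 0 in every library. Its part in the values of rxrgb was not tested.

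**Figure D2:**
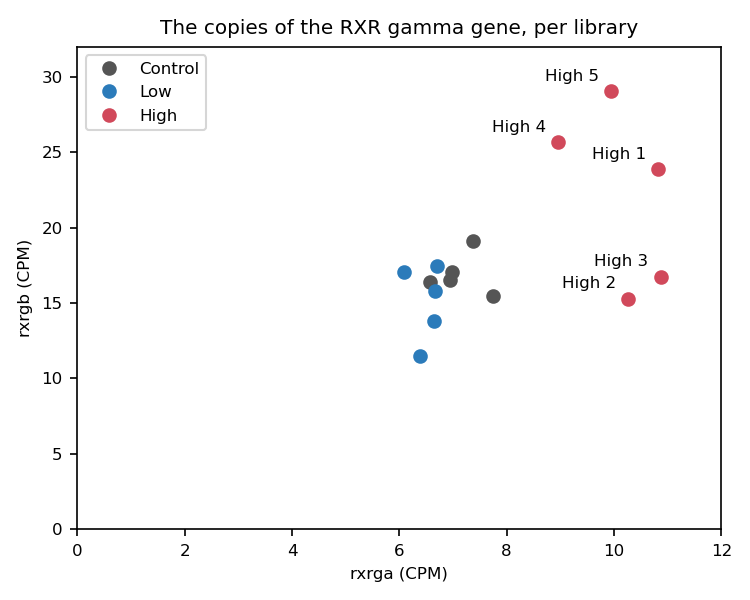
CPM of rxrga (horizontal axis) and rxrgb (vertical axis) in each of the 15 libraries, coloured by group. The 5 High libraries lie to the right of the others on rxrga, while on rxrgb 3 of them lie above the Control libraries and High 2 and 3 lie at 15.3 and 16.7 CPM, beside them.

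The ratio of the copies asks whether they moved unequally. The log2 of rxrga over rxrgb was -1.25 ± 0.147 for Control, -1.20 ± 0.255 for Low and -1.08 ± 0.469 for High (SD, n = 5 each). In High it was -1.14, -0.58, -0.62, -1.52 and -1.55 in libraries 1 to 5, a spread that took in all of the Control values, which ran from -1.37 to -0.997. The difference of means was 0.17 against Control (two-sided exact permutation test, p = 0.46) and 0.12 against Low (p = 0.627, same test). Over 5 pairs of copies and 3 comparisons the 15 exact permutation tests gave Benjamini-Hochberg adjusted p from 0.784 to 0.905. The smallest p that 5 libraries against 5 allow is 0.00794, so 1 ratio alone could not pass the threshold of 0.05 after adjustment over the 15 tests.

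RXRA, the alpha form, is needed for growth of the heart ventricle in mouse. ENSDARG00000057737 had 13.3, 16.5, 15.2, 16.4 and 15.2 CPM in Control 1 to 5, and 13.3, 14.3, 13.8, 11.8 and 17.8 CPM in Low. In High 1 to 5 it had 16.1, 19.1, 15.9, 22.1 and 18.8 CPM. All 5 High libraries were above the Control mean of 15.3 CPM, but 2 of them, High 1 and 3, were below the highest Control library. On the log2 scale the fold change was 0.26 against Control (95% interval 0.0078 to 0.52; adjusted p = 0.301) and 0.37 against Low (95% interval 0.12 to 0.63; adjusted p = 0.099) by edgeR. Without Low 5 the adjusted p against Low was 0.0162, in a fit that called 17% of all genes. With the pancreas and liver mean as a covariate the log2 fold change was 0.17 against Control (adjusted p = 0.42) and 0.22 against Low (adjusted p = 0.357). Without the 5 libraries rich in these transcripts it was 0.089 and 0.27 (adjusted p of 0.869 and 0.227).

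The other RXRA copy, ENSDARG00000035127, measured 3.52 to 4.82 CPM in Control (median 4.24), 2.97 to 4.95 in Low (median 3.26) and 3.06 to 5.75 in High (median 5.31). In High it was 3.06 and 3.28 in libraries 1 and 5 and 5.31 to 5.75 in the rest, on both sides of Control. Its log2 fold change against Control was 0.13 (95% interval -0.31 to 0.57; adjusted p = 0.822).

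RXRB, the beta form, had 51.6 to 64.3 CPM in Control, 52.9 to 60.2 in Low and 48.2 to 67.5 in High. The group means were 59.06 ± 5.43, 56.0 ± 2.96 and 59.3 ± 7.11 CPM (SD, n = 5 each), with broad overlap. High against Control gave a log2 fold change of 0.005 with a 95% interval of -0.19 to 0.20, and its sign turned with scaling, to -0.0096 with upper-quartile factors.

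rxrbb (ENSDARG00000002006), the other beta copy, had the largest coefficient of variation of the 10 genes in every group. It had 7.18, 8.75, 3.39, 5.80 and 4.73 CPM in Control 1 to 5, 6.78, 8.68, 6.18, 11.1 and 6.95 CPM in Low and 7.01, 6.99, 9.69, 3.34 and 7.25 CPM in High. The lowest values were in Control 3 and High 4, and the highest was in Low 4. The groups overlapped, and the coefficient of variation was 34.9% for Control, 25.2% for Low and 33.1% for High. Its log2 fold change was 0.42 for Low against Control (95% interval -0.18 to 1.01; adjusted p = 0.676) and 0.20 for High against Control (95% interval -0.39 to 0.80; adjusted p = 0.785) by edgeR.

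Among the retinoic acid receptors, none of the 4 genes passed in any comparison. raraa, a copy of the alpha receptor whose human counterpart is fused to PML in acute promyelocytic leukaemia, had 26.6 to 41.3 CPM in Control, 28.9 to 34.1 in Low and 30.0 to 39.4 in High. All High and Low libraries lay within the range of Control. Its log2 fold change was 0.068 for High against Control (95% interval -0.16 to 0.30) and 0.19 for High against Low (95% interval -0.043 to 0.42).

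rarab, the other alpha copy, had 4.32 to 5.69 CPM in Control, 4.4 to 7.77 in Low and 5.2 to 8.4 in High. Low 3 at 7.77 and High 4 at 8.4 CPM stood apart from their groups, where chance sets about 1 in 20 groups of 5 values apart. The remaining 4 were at 4.4 to 5.25 CPM in Low and 5.2 to 5.95 CPM in High. High against Control gave 0.24 on the log2 scale (95% interval -0.13 to 0.60; adjusted p = 0.548).

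RARG, the gamma form, acts in skin and cartilage in mouse. ENSDARG00000034117 had 93.8 to 117 CPM in Control, 90.6 to 108 in Low and 101 to 119 in High. Low was lower on average, at 98.9 ± 6.68 against 109.5 ± 9.37 CPM (SD, n = 5 each), with overlapping libraries. Low against Control gave a log2 fold change of -0.15 (95% interval -0.32 to 0.023; adjusted p = 0.579). High against Control gave -0.012 (95% interval -0.18 to 0.16), a value whose sign turned with RLE scaling, to 0.0058.

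ENSDARG00000054003, the second RARG identifier, had 2.96 to 4.80 CPM in Control, 3.05 to 4.54 in Low and 3.49 to 5.95 in High. High against Control gave a log2 fold change of 0.25 (95% interval -0.16 to 0.67; adjusted p = 0.57), and the 3 groups overlapped. In log2 terms the ratio of the first to the second identifier was 4.84 ± 0.270 for Control, 4.70 ± 0.149 for Low and 4.58 ± 0.295 for High (SD, n = 5 each), with p = 0.175 for High against Control by an exact permutation test.

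**Figure D3:**
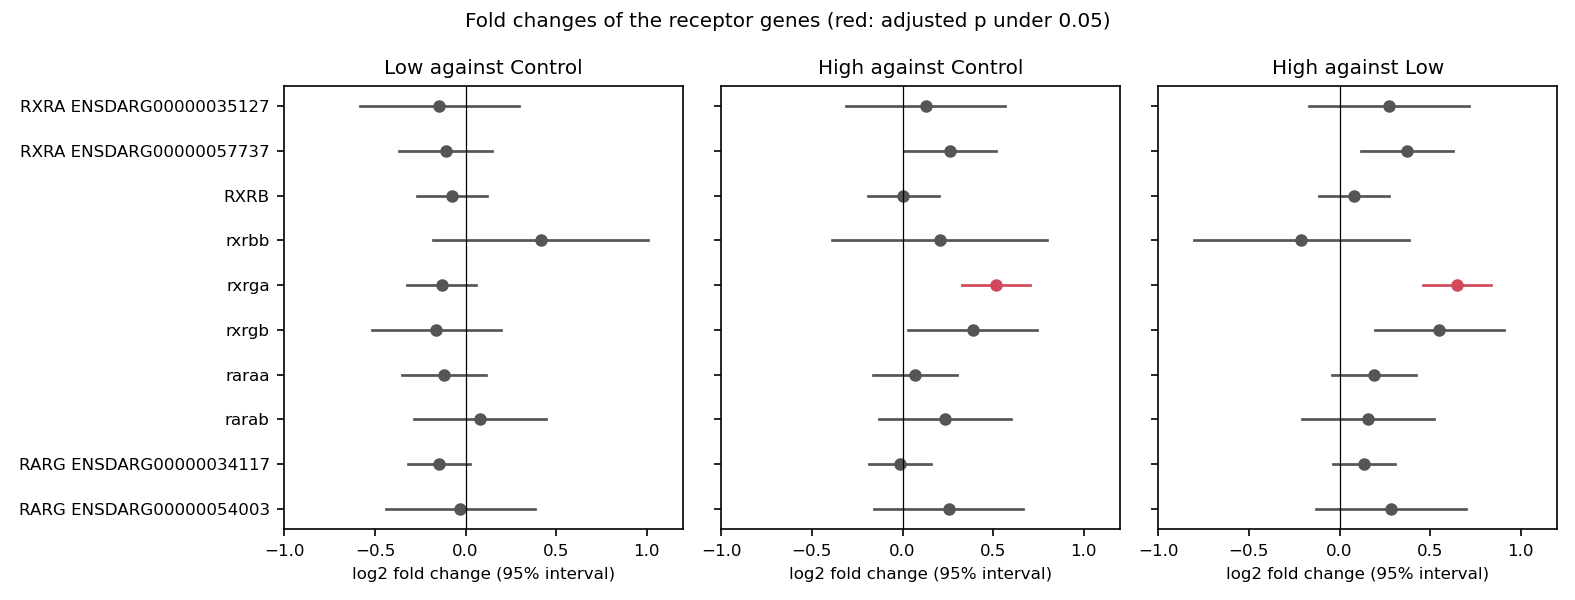
Log2 fold changes of the 10 retinoid receptor genes with their 95% intervals in the 3 comparisons of groups (horizontal axis, log2; vertical axis, genes). rxrga at 0.51 and 0.65 in the comparisons of High is the only gene past the threshold.

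Counted together, 9 of 10 receptor genes had a log2 fold change above 0 in High against Control and 9 in High against Low, with medians of 0.22 and 0.23 where the medians of all genes were -0.015 and -0.015. Of all genes, 47.9% and 48.3% lay above 0. At an unadjusted p under 0.05 there were 3 receptor genes in each of these comparisons (rxrga, rxrgb and the RXRA identifier ENSDARG00000057737), where 15.8% and 21.9% of all genes reached that level. The same High libraries enter both comparisons. DESeq2 called 1 receptor gene against Control and 3 against Low, where it called 4.48% and 7.63% of all genes, and voom called 1 and 2, where it called 1.25% and 21.2%. On the slope DESeq2 called 1 (3.78% of all genes) and voom 0 (0.404%).

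Low against Control called 0 receptor genes by edgeR, and also 0 at an unadjusted p under 0.05, 0 by DESeq2 and 0 by limma voom. Of all genes edgeR called 0%, DESeq2 0.291% and voom 6.5%, and 9.53% had an unadjusted p under 0.05. No receptor gene had groups apart, against 1.31% of all genes. Here 2 receptor genes were above 0 and 8 below, with a median of -0.12 against 0.002 for all genes.

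Likeness of profile between genes was taken as the root mean square difference of log2 CPM, each gene centred on its own mean, over all 15 libraries. Within the 10 receptor genes the nearest to rxrga was raraa at 0.256. A gene without any change would stand at 0.287 from rxrga, so raraa was little nearer than that. rxrbb was farthest from each other gene at 0.454 to 0.669. Among 14530 candidate genes, with a median difference of 0.39, those nearest to rxrga were FBXO42 at 0.141, UNC119 at 0.15, DTX4 at 0.154, CYP27C1 at 0.155 and degs1 at 0.156. FBXO42 encodes a subunit of a ubiquitin ligase, UNC119 a lipid-binding protein of photoreceptors, DTX4 a ubiquitin ligase of the Deltex family, CYP27C1 an enzyme that desaturates vitamin A in zebrafish and degs1 a desaturase of sphingolipids.

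These 5 genes were chosen by that likeness, so their group values are a description only. CYP27C1 (ENSDARG00000092660) averaged 7.40 ± 1.01 CPM for Control, 7.22 ± 0.424 for Low and 9.68 ± 0.874 for High (SD, n = 5 each). UNC119 (ENSDARG00000034453) averaged 15.3 ± 0.727, 15.6 ± 1.54 and 21.8 ± 2.73 CPM. In each of the 5 the High mean was above both other means.

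**Figure D4:**
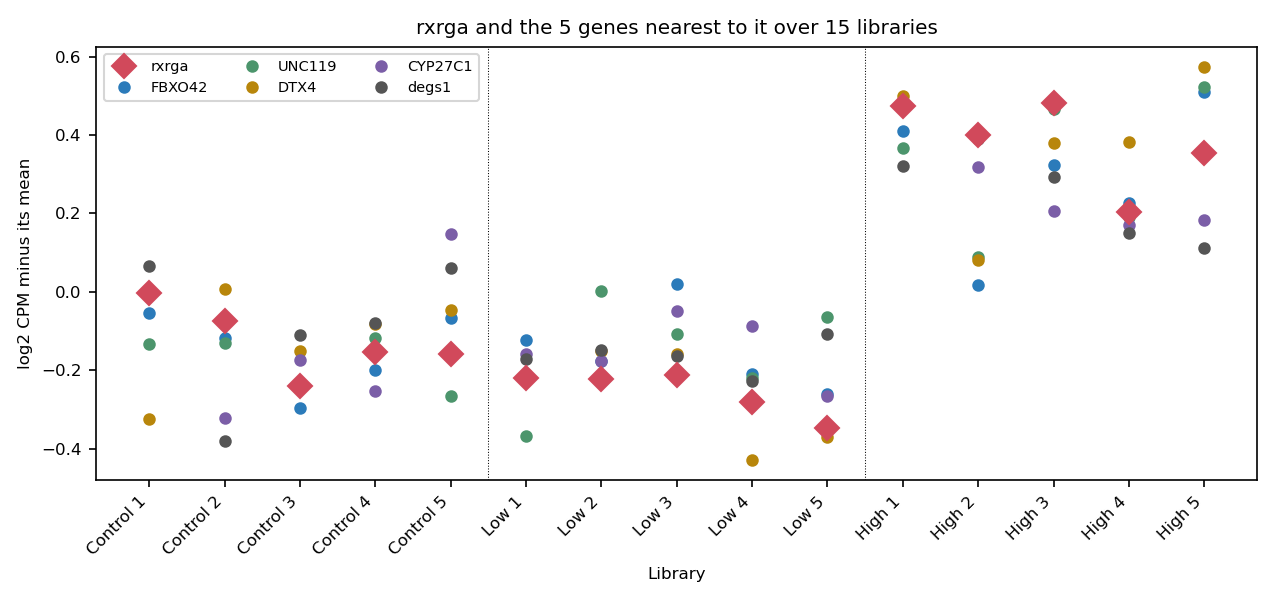
Log2 CPM minus the mean of each gene (vertical axis) in each library (horizontal axis) for rxrga, drawn as large diamonds, and the 5 genes nearest to it by profile. The 5 genes were chosen for this likeness; the High values of rxrga sit above its Control and Low values.

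The genes around the receptors were counted by list. Beside them, edgeR called 0.522% of all genes in High against Control and 1.71% in High against Low, with all-gene medians of -0.015 in both. In these comparisons the groups did not overlap in 4.41% and 4.31% of all genes. Of 18 identifiers of nuclear receptors that partner RXR (the receptors for vitamin D, thyroid hormone, fatty acids, oxysterols and bile acids, and the NR4A receptors), 0 passed by edgeR in High against Control, High against Low or Low against Control. In High against Control 10 were above 0, with a median of 0.042.

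Of 16 coregulators, 1 fell, in High against both Control and Low, and 13 of the 16 were below 0 against Control, with a median of -0.15. NCOR1 (ENSDARG00000035285), the corepressor of unliganded receptors, had 12.8, 43.0, 30.0, 29.9 and 28.5 CPM in Control 1 to 5. In Low it had 2.30, 49.0, 19.7, 22.7 and 3.82 CPM, and in High 3.15, 2.03, 1.48, 2.14 and 2.78 CPM. High was below Control in every library and overlapped Low, where Low 1 lay within the range of High and Low 5 just above it. The log2 fold change was -3.63 (SE 0.70; adjusted p = 0.0416) against Control and -3.07 (SE 0.69; adjusted p = 0.0448) against Low.

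The call of NCOR1 against Control was made in 4 of 15 fits that each left out 1 library (those without Low 1, 2 or 5 or High 3), and adjusted p reached 0.117 without High 4. Against Low it was made in 3 of 15 (without Control 2, Low 1 or Low 5), and adjusted p reached 0.116 without High 2. With the digestive mean as covariate the log2 fold changes were -3.53 and -2.76 (adjusted p of 0.0566 and 0.19).

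Of 17 identifiers on the list for synthesis and breakdown of retinoic acid, 16 were tested. The list is wider than its name, since it also holds BCO1, BCO2, LRAT and STRA6, which do not themselves make or break down retinoic acid. Against Control 1 of them rose and 0 fell, with 10 above 0 and a median of 0.22, and against Low 1 rose, with 12 above 0 and a median of 0.31. The gene that rose was BCO2 (ENSDARG00000041715), an enzyme that cleaves carotenoids and not one that acts on retinoic acid. ENSDARG00000055722, which shares the symbol BCO2, was not among the passing genes. BCO2 below means ENSDARG00000041715, which had 2.14, 0.729, 2.39, 2.03 and 2.65 CPM in Control 1 to 5. In Low it had 2.34, 1.57, 1.94, 2.09 and 1.18 CPM and in High 5.87, 7.54, 5.42, 4.97 and 4.22 CPM. These values rest on low counts, of 16 to 164 in Control, 26 to 57 in Low and 103 to 219 in High. All High libraries were above all others, in a gene named because it passed. The log2 fold change was 1.48 (SE 0.29; adjusted p = 0.0355) against Control and 1.62 (SE 0.29; adjusted p = 0.0181) against Low.

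The call of BCO2 against Control was lost in 8 of 15 fits (without Control 1, 3 or 4, Low 3 or High 1, 2, 4 or 5), with adjusted p up to 0.103 without High 2. Against Low it was lost without Low 3 (adjusted p = 0.0579) and without High 2 (0.0545).

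Of 16 identifiers of retinoid binding proteins 13 were tested. Against Control 0 rose and 1 fell, with 12 above 0 and a median of 0.33. Against Low 2 rose and 1 fell, with 11 above 0 and a median of 0.64. In the same comparison the marker lists of liver (17 of 17 above 0, median 2.23), intestine (11 of 12, median 1.55) and retinal pigment epithelium (11 of 13, median 0.92) also lay above 0. Against Control these lists had 17 of 17, 10 of 12 and 10 of 13 above 0, with medians of 1.26, 0.73 and 0.14. They were picked from several tissue lists. In High against Low those of exocrine pancreas (13 of 13, median 1.94), erythrocytes (6 of 6, 0.86) and skeletal muscle (10 of 12, 0.25) also lay above 0. Those of rods (1 of 15, -0.33), cones (6 of 17, -0.37) and neurons (1 of 17, -0.26) lay mostly below 0. The binding list holds genes of liver, intestine and pigment epithelium, such as RBP4 and rlbp1b. The part of the tissues in its values was not tested. The gene rlbp1b stands in both the binding list and the pigment epithelium list. rbp7a (ENSDARG00000091906), which encodes a cellular retinol-binding protein, had 25.7, 13.5, 17.4, 13.6 and 15.6 CPM in Control 1 to 5, 18.4, 8.12, 20.5, 14.1 and 13.3 CPM in Low, and 5.01, 5.79, 7.92, 6.36 and 4.26 CPM in High. All High libraries were below all others, in a gene named because it passed. The log2 fold change was -1.55 (SE 0.25; adjusted p = 0.019) against Control and -1.34 (SE 0.25; adjusted p = 0.0188) against Low, and rbp7a also passed on the slope of arsenic (adjusted p = 0.0402).

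The call of rbp7a against Control was lost only without High 1 (adjusted p = 0.0632). Against Low it was lost without Low 1, 3 or 4 or High 1 or 2, with adjusted p up to 0.063. rbp4l (ENSDARG00000044684) and rbp5 (ENSDARG00000101481) were the genes that rose against Low. rbp4l averaged 168 ± 21.1 CPM for Control, 144 ± 25.8 for Low and 249 ± 43.1 for High (SD, n = 5 each), and rose by 0.79 on the log2 scale against Low (SE 0.14; adjusted p = 0.0181). rbp5 averaged 34.3 ± 10.4, 26.4 ± 2.41 and 43.3 ± 5.54 CPM and rose by 0.71 (SE 0.17; adjusted p = 0.0467). In High against Control edgeR gave 0.56 for rbp4l (adjusted p = 0.0777), with the groups apart. For rbp5 it gave 0.33 (0.356), with the groups overlapping, and -0.38 in Low against Control (0.496). The call of rbp4l was lost without Low 3 (0.063) or Low 4 (0.0534), and that of rbp5 was made in 4 of 15 fits (without Control 2, Control 5, Low 5 or High 3), with adjusted p up to 0.133 without Low 3.

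Of 18 identifiers of genes responsive to retinoic acid 13 were tested, and 0 passed against Control, with 10 above 0 and a median of 0.17. Against Low 1 rose, with 10 above 0 and a median of 0.39. That gene was HOXB5 (ENSDARG00000013057), a patterning gene of the trunk, with 17.7 ± 2.39 CPM for Control, 10.4 ± 4.94 for Low and 21.6 ± 3.72 for High (SD, n = 5 each). Low 5 had 19.0 CPM where the other Low libraries had 7.19 to 10.3. By edgeR its log2 fold change was 0.29 in High against Control (adjusted p = 0.601) and -0.76 in Low against Control (adjusted p = 0.434). The log2 fold change of High against Low was 1.05 (SE 0.24; adjusted p = 0.0418), and without Low 5 adjusted p was 0.00103. The call was lost in 11 of 15 fits, being made only without Control 2, Control 3, Low 5 or High 3, with adjusted p up to 0.122 without Low 3. ENSDARG00000054030, which shares the symbol HOXB5, was not among the passing genes. CYP26A1 and CYP26C1, chosen after their values were seen, did not pass, and CYP26B1 was not among the passing genes. CYP26A1, which breaks down retinoic acid, had a log2 fold change of -0.46 in High against Control (adjusted p = 0.304 by edgeR). CYP26C1, another of these enzymes and on the breakdown list only, had -0.41 (adjusted p = 0.259). Most of their lists ran the other way. Above 0 against Control were 10 of 13 tested responsive identifiers and 10 of 16 on the list that holds the breakdown enzymes. The 3 names CYP26A1, CYP26B1 and DHRS3 stand in both the breakdown list and the responsive list.

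With the digestive mean as a covariate, a fit that called 69 genes against Control and 62 against Low, BCO2 had log2 fold changes of 1.72 and 1.97 (adjusted p of 0.0215 and 0.0229) and rbp7a -1.48 against Control (0.0324). Against Low the other calls did not pass, with values of -1.19 for rbp7a (0.0722), 0.78 for rbp4l (0.0597), 0.78 for rbp5 (0.101) and 0.79 for HOXB5 (0.0976), beside -1.34, 0.79, 0.71 and 1.05 without the covariate.

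Without the 5 libraries rich in these transcripts, which leaves 2 High libraries, BCO2 (1.51, adjusted p = 0.0131), rbp4l (0.94, 0.0398) and HOXB5 (1.25, 0.021) passed against Low. rbp7a (-1.24, 0.118), rbp5 (0.67, 0.105) and NCOR1 (-3.32, 0.142) did not. Against Control none of the 3 passed, with log2 fold changes of 1.29 for BCO2 (0.0863), -1.49 for rbp7a (0.319) and -3.43 for NCOR1 (0.402).

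**Figure D5:**
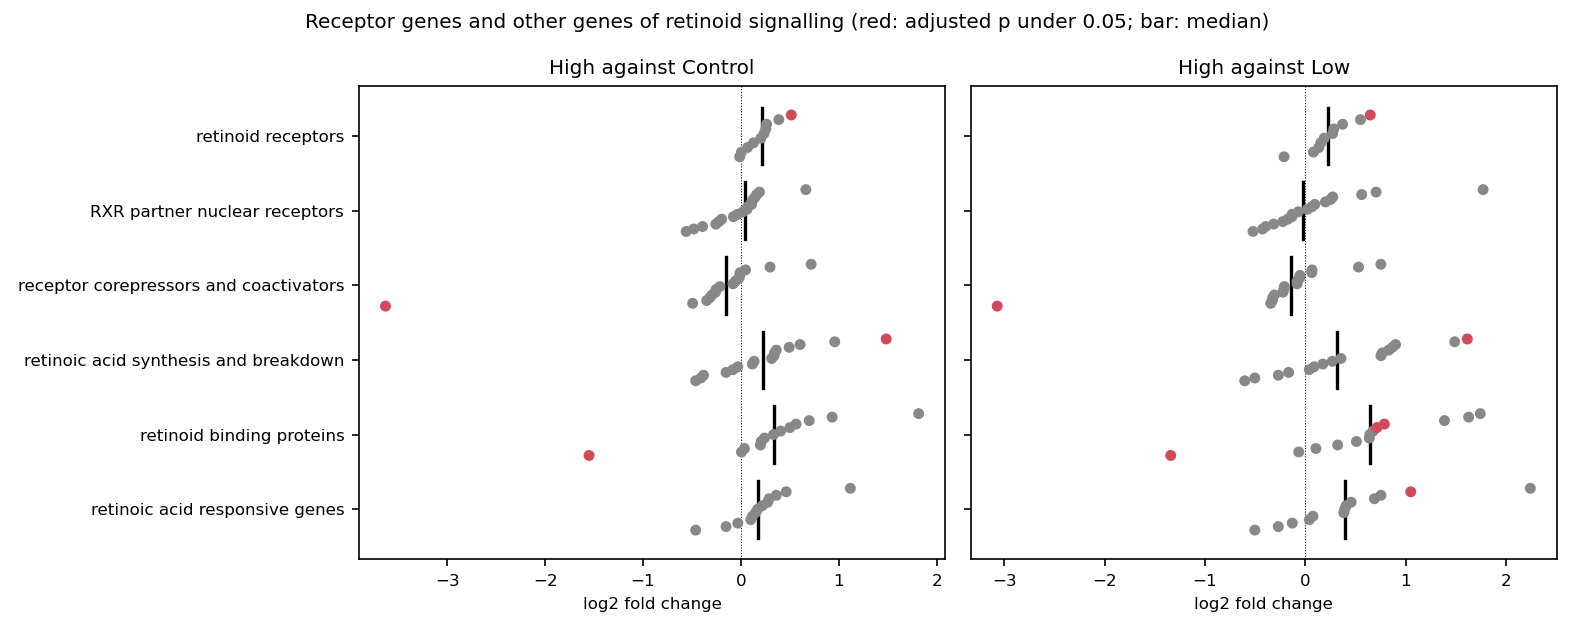
Log2 fold changes in the comparisons of High for the receptor genes and for the tested genes of 5 lists around them (points), with the median of each set. Red marks an adjusted p under 0.05. The median of the retinoid binding list against Low is 0.64 and that of the coregulator list against Control is -0.15.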

How the data were processed

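The authors deposited raw counts of reads for each Ensembl gene, not normalized, per the file headers and the whole-number values. Trimmomatic, FastQC, MultiQC and DESeq2 are named in the submitters' processing notes, with the builds GRCz11 and mm10 (mouse). The aligner was not given in the sources used here, nor were the counter, annotation and strand setting. Therefore reads of overlapping, antisense or near-identical genes, copies of a receptor included, may be misassigned. Of 32520 genes, 29201 had a symbol, and 15 lines that name no gene were left out.

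Tests used R 4.3.3 and edgeR 4.0.16 (filterByExpr, TMM factors, robust quasi-likelihood test on all 15 libraries, 1 coefficient per group). P-values were adjusted by Benjamini-Hochberg over the 22012 genes tested, with a threshold of 0.05. CPM are counts over the TMM-scaled total in M (mega), with a prior count of 2 on the log2 scale. The slope used worm arsenic with Control at 0. The test was tried first on simulated counts. Copy ratios were tested by exact permutation. No 2 libraries were identical, and within a group the chi-square per gene was 17.2 or higher, so all were kept.

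The receptor genes, the gene lists and the tests were chosen with earlier results of these data known. The text names all 10 receptor genes, up to 4 passing genes per signalling list by smallest p, and the 5 genes nearest in profile to a passing receptor among genes with an informative symbol and mean log2 CPM of at least 1. Of 216 written list names, 17 matched no gene. Alternatives were other scaling and filters, DESeq2 1.42.0, limma 3.58.1 voom, fits on 2 groups, the replicate number as a block, digestive content as covariate, water arsenite as dose, each library left out and, added after seeing the data, the digestive-rich libraries left out.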

Additional observations from a re-analysis of the deposited data

Results flagged for a closer look

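Over 45 groups of 5 values (10 receptor genes and 5 copy ratios in 3 groups), 3 held a library far from the other 4, where chance gives about 1 in 20. The rarab CPM in Low 3 was 7.77, with the other Low libraries at 4.4 to 5.25. The rarab CPM in High 4 was 8.4, with the other High libraries at 5.2 to 5.95. In High 4 the log2 ratio of RXRB to rxrbb was 4.34, with the other High libraries at 2.66 to 3.09, and rxrbb itself was at 3.34 CPM there. Control 3 had a ratio near that of High 4, at 4.24.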

How the results depend on the processing

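The number of receptor genes called in High against Control was 1, and 0 in the fit on these 2 groups, 0 without the digestive-rich libraries (an alternative chosen after seeing the data) and 0 to 1 when 1 library was left out. In High against Low it was 1, and 3 with DESeq2, 2 with voom and 1 to 3 with 1 library left out, 3 being without Low 5, where 3778 genes (17%) were called; DESeq2 added rxrgb (adjusted p = 0.0293) and RXRA ENSDARG00000057737 (0.0418), and voom the latter (0.0118). On the slope it was 0, and 1 with DESeq2 (rxrga, 0.0065). In Low against Control it was 0 under each alternative run. It was also 0 for the copy ratios, where 1 ratio alone could not pass. The cause was not tested.

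Same-numbered libraries deviated from their group means with correlations of -0.541 to 0.537 over 15 pairs, 9 of them over 0.1. In 6 of the 15 pairs, those of numbers 1 and 3 (0.227 to 0.537), the library correlated best with its own number. Since not every pair was over 0.1, the numbers are not taken to pair libraries. That rule cannot tell whether some of the numbers, such as 1 and 3, are linked. With the replicate number as a block the count in High against Control was 0 (rxrga adjusted p = 0.0939) and rxrga passed against Low (0.0363), and 20 and 106 genes were called in all. Of the genes named around the receptors, the block fit lost NCOR1 (adjusted p = 0.132 against Control, 0.131 against Low), BCO2 (0.124, 0.0557) and rbp5 (0.0715 against Low). It kept the calls of rbp7a, rbp4l and HOXB5. By voom only NCOR1 was lost (0.0854, 0.0881). Fits on 2 groups lost BCO2 against Control (0.0799), and NCOR1 (0.0999) and HOXB5 (0.0973) against Low, and kept the other calls.

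Called genes in all ran from 115 to 987 (DESeq2), 275 (voom), 69 (covariate), 51 (2 groups) and 6 (digestive-rich out) in High against Control, from 377 to 1679, 4656, 62, 118 and 515 in High against Low, and from 0 to 64, 1431, 0, 0 and 1490 in Low against Control. On the slope 63 became 832, 89 and 28, 42 with water arsenite and 1 without the digestive-rich libraries. With 1 library left out they ran from 19 (without Control 4) to 362 (High 3) in High against Control, 39 (Low 3) to 3778 (Low 5) in High against Low, 0 to 507 (Low 5) in Low against Control and 3 (High 2) to 141 (High 3) on the slope, so the shares of all genes called rest on single libraries.

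Of the signs that turned, none was of a called value. For RARG ENSDARG00000034117 against Control they were 0.0058 (RLE), 0.0080 (1 CPM filter), 0.0050 (DESeq2), 0.014 (covariate), 0.0011 (2 groups) and -0.064 to 0.028 with 1 library left out. On the slope they were 0.0021, 0.0025, 0.0020, 0.00060 (covariate) and -0.0068 to 0.0061. For RXRB against Control they were -0.0096 (upper quartile), -0.0028 (total counts), -0.00090 (voom), -0.012 (covariate), -0.079 (digestive-rich out) and -0.041 to 0.070. On the slope they were -0.00082, -8.4e-05, -0.0025, -0.0021, -0.011 and -0.0042 to 0.0097. Without the digestive-rich libraries High against Low gave -0.023 for RXRB and 0.027 for rxrbb, from 0.081 and -0.21. Low against Control ranged from -0.076 to 0.16 for rarab and -0.11 to 0.062 for RARG ENSDARG00000054003. The RXRA copy ratio of Low against Control was 0.11 with medians and -0.10 to 0.030 with 1 library left out. With 1 library left out the rxrga to rxrgb ratio ran from -0.044 to 0.12 (Low against Control) and -0.0043 to 0.24 (High against Low), RXRB to rxrbb from -0.48 to 0.021 (High against Control, -0.19 with all libraries), and raraa to rarab from -0.14 to 0.14 (High against Low). The lowest receptor count in a library was 65.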
